A study of Mus musculus with 7 samples.

Results

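The gastric corpus of a mouse killed 36 h after its last dose of diphtheria toxin was compared with that of a saline-treated mouse, 1 array against 1 array out of 7 in the series. All arrays came from Atp4b-DTR mice, in which the promoter of the proton pump subunit Atp4b puts the diphtheria toxin receptor on parietal cells, so that the toxin kills those cells; the control animal carried the transgene as well. Mice were 8 to 12 weeks old, and littermates served as controls when possible. They received 225 ng of toxin per mouse, or saline, by intraperitoneal injection on 3 consecutive days, and tissue was taken 24, 36, 48 or 72 h after the last toxin dose. The other 5 arrays were 1 at 24 h, 2 at 48 h and 2 at 72 h. Values are log2 signal, on which a difference of 1 is 2-fold. Of 22180 genes with a probe set of their own, 922 on the X and Y chromosomes were left out, and all of the other 21258 were compared.

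With 1 array a side there is no replicate and no test. A difference between the 36 h and control arrays is therefore set against the same gene's difference within the pair of 48 h arrays and within the pair of 72 h arrays. It is called beyond both pairs where it is larger than both. The number of arrays limits the precision, and a trait of the single control mouse or of the single 36 h mouse cannot be told apart from an effect of the toxin.

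The corpus gland of the stomach holds acid-secreting parietal cells, mucous neck cells, enzyme-secreting chief cells at its base and mucus-secreting pit cells at its surface. Parietal cells also release growth factors and carry many mitochondria. When they are lost, chief cells are known to scale down their secretory machinery, neck-type mucous cells are known to expand, a state called spasmolytic polypeptide-expressing metaplasia (SPEM), and dividing progenitor cells become more frequent. The markers of a corpus were present on both arrays: Atp4a and Atp4b, the subunits of the proton pump, the pepsinogen Pgc and the pit cell protein Gkn1 were each above 12 in log2 signal on the control array and at 36 h.

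Array medians over all probe sets ran from 4.56 to 4.71, with 4.56 on the control array and 4.66 at 36 h. The X-linked transcript Xist, which is made in female cells, read 8.13 on the control array and 9.17 at 24 h but 3.22 at 36 h and 2.70 to 3.27 on the later arrays. The Y-linked Eif2s3y read 3.81 and 3.40 on the control and 24 h arrays, 8.39 at 36 h and 7.79 to 8.20 later. The control and 24 h arrays thus shared a female pattern, and the 36 h array and the 4 later ones a male pattern. Sex is not in the labels, and for 36 h against control it cannot be told apart from the toxin; the 24 h array, which had the toxin and the control's pattern, is given beside the named genes with the largest differences. The times of 24, 48 and 72 h are whole days after the last injection and 36 h is not, and time of day is not given, so that it cannot be told apart from the time of recovery.

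The corpus at 36 h differed from the control at least 2-fold in 538 of 21258 genes, or 2.53% of them. Of these, 199 were higher (0.936%) and 339 lower (1.59%), so that 37.0% of the differences were upward. With the array medians subtracted the split was 150 higher and 433 lower, or 25.7% upward. Beyond both pairs there were 195 higher genes (0.917%) and 334 lower genes (1.57%), together 2.49%. The same count of 2-fold differences was 107 within the 48 h pair and 67 within the 72 h pair. A difference of at least 4-fold was seen for 26 higher and 57 lower genes, beside 24 within the 48 h pair and 11 within the 72 h pair. At 8-fold and above, 5 genes were higher and 12 lower, beside 8 and 6 within the pairs, so that an 8-fold difference by itself is not far outside what arrays of 1 group showed.

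The 36 h array was much closer to the other toxin arrays than to the control. It differed 2-fold from the 24 h array in 130 genes, from the 48 h arrays in 90 and 98 genes and from the 72 h arrays in 80 and 110 genes. These counts lie near the 107 and 67 within the pairs, and the highest of them was against the 24 h array, whose sex pattern differed. Over all genes the median size of the difference was 0.151 at 36 h against control, 0.114 within the 48 h pair and 0.0976 within the 72 h pair.

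**Figure D1:**
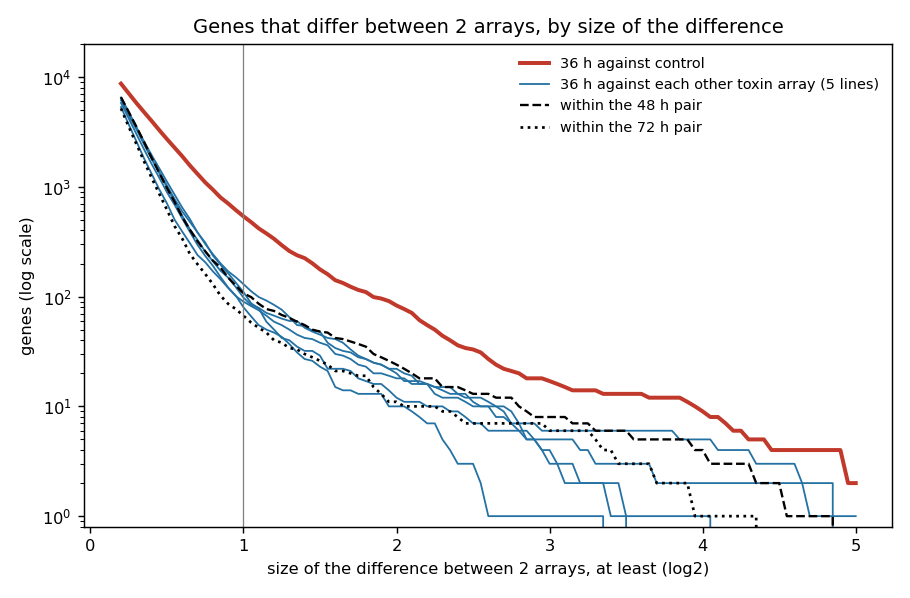
Number of genes, on a log scale, whose log2 signal differs between 2 arrays by at least the size on the horizontal axis, for 36 h against control (red), 36 h against each of the other 5 toxin arrays (blue) and the 48 h and 72 h pairs (black). At a log2 size of 1 (grey line) the red line stands at 538 genes and the pairs at 107 and 67; the blue lines run from 80 to 130.

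The largest upward differences at 36 h were in genes of secreted mucus and mucosal protection. Fcgbp, a protein that cross-links goblet cell mucus, read 4.57 in the control, 4.05 after 24 h, 9.50 after 36 h, 7.81 and 5.18 on the 48 h arrays, and 8.79 and 8.72 on those of 72 h. Zg16, a lectin of intestinal mucus that binds bacteria, read 3.34 in the control, 3.60 after 24 h, 8.27 after 36 h, 6.67 and 4.21 on the 48 h arrays, and 8.17 and 7.94 on those of 72 h. Each was 4.93 above the control at 36 h and near it at 24 h, and both also differed strongly within the 48 h pair, by 2.63 and 2.47. Clca1, a secreted protease that processes mucin, read 6.90 in the control, 9.23 after 24 h, 10.75 after 36 h, 10.19 and 10.40 on the 48 h arrays, and 10.84 and 10.29 on those of 72 h. It stood 3.85 above the control at 36 h, beside a larger pair gap of 0.55. Clca1 was high on every toxin array and lowest of them at 24 h.

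Most other markers of goblet cells, the mucus cells of the intestine, stood closer to the control. Of 20 measured goblet cell genes 13 were higher and 5 lower, with 3 of them 2-fold higher beyond both pairs, namely Fcgbp, Zg16 and Clca1, and none 2-fold lower. The shares of all genes were 44.6% higher and 0.917% 2-fold higher beyond both pairs. The list's median was 0.22 beside 0.00 over all genes. Muc2, the mucin that defines goblet cells, read 4.49 in the control, 4.90 after 24 h, 4.72 after 36 h, 4.73 and 4.82 on the 48 h arrays, and 4.71 and 4.88 on those of 72 h. Tff3, a goblet cell peptide, read 5.78 in the control and 5.62 at 36 h. Atoh1 and Spdef, transcription factors of that lineage, differed from the control by 0.00 and -0.15.

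Dmbt1, a scavenger protein of the mucosal surface, read 5.91 in the control, 9.32 after 24 h, 10.06 after 36 h, 9.25 and 9.94 on the 48 h arrays, and 9.09 and 9.09 on those of 72 h, so that every toxin array lay more than 3 above the control and the difference at 36 h was 4.15. Pigr, the receptor that carries IgA across the epithelium, was 2.56 higher, with 5.55 in the control, 8.57 after 24 h and 8.11 after 36 h. Bpifb1, a secreted defence protein, was 1.91 higher, with 9.0 in the control and 10.91 at 36 h, and the antimicrobial lectin Reg3g was 1.12 higher. These 4 were the 2-fold higher genes of 23 measured mucosal defence genes, of which 15 were higher and 7 lower with a median of 0.11. The shares of all genes were 44.6% higher and 0.917% 2-fold higher beyond both pairs. No other member was 2-fold apart in either direction beyond both pairs. Lcn2 and Saa3, defence genes that rise in inflammation, differed by -0.15 and -0.15.

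Genes of squamous or barrier epithelium were also among the leaders. Slurp1, a secreted peptide of squamous epithelium, read 5.79 in the control, 6.54 after 24 h, 8.44 after 36 h, 7.52 and 6.34 on the 48 h arrays, and 8.41 and 7.86 on those of 72 h. Ly6d, a surface protein of squamous epithelium, read 7.21 in the control, 8.30 after 24 h, 9.53 after 36 h, 8.64 and 8.70 on the 48 h arrays, and 8.64 and 8.72 on those of 72 h. Gsdmc2 and Gsdmc3, gasdermins of intestinal epithelium, were 2.64 and 2.55 higher, with 5.19 and 4.79 in the control, 7.31 and 6.43 after 24 h and 7.83 and 7.33 after 36 h; they belong to a cluster of similar copies, so their probe sets may share signal. The forestomach, the squamous part of the mouse stomach next to the corpus, was checked by 19 of its markers: 10 were higher, 5 lower and 4 equal, with a median of 0.01, and their mean log2 signal was 5.46 on the control array and 5.76 at 36 h. The keratins Krt13 and Krt4 differed by 0.24 and -0.83 between 36 h and control, but by 3.25 and 4.39 within the 72 h pair. Krt6a and Sprr1a were 2-fold higher beyond both pairs, by 1.37 and 1.17 (10.5% of the 19, beside 0.917% of all genes). Over all genes 44.6% were higher and 46.3% lower. The part of forestomach tissue in the values of Slurp1 and Ly6d was not tested.

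**Figure D2:**
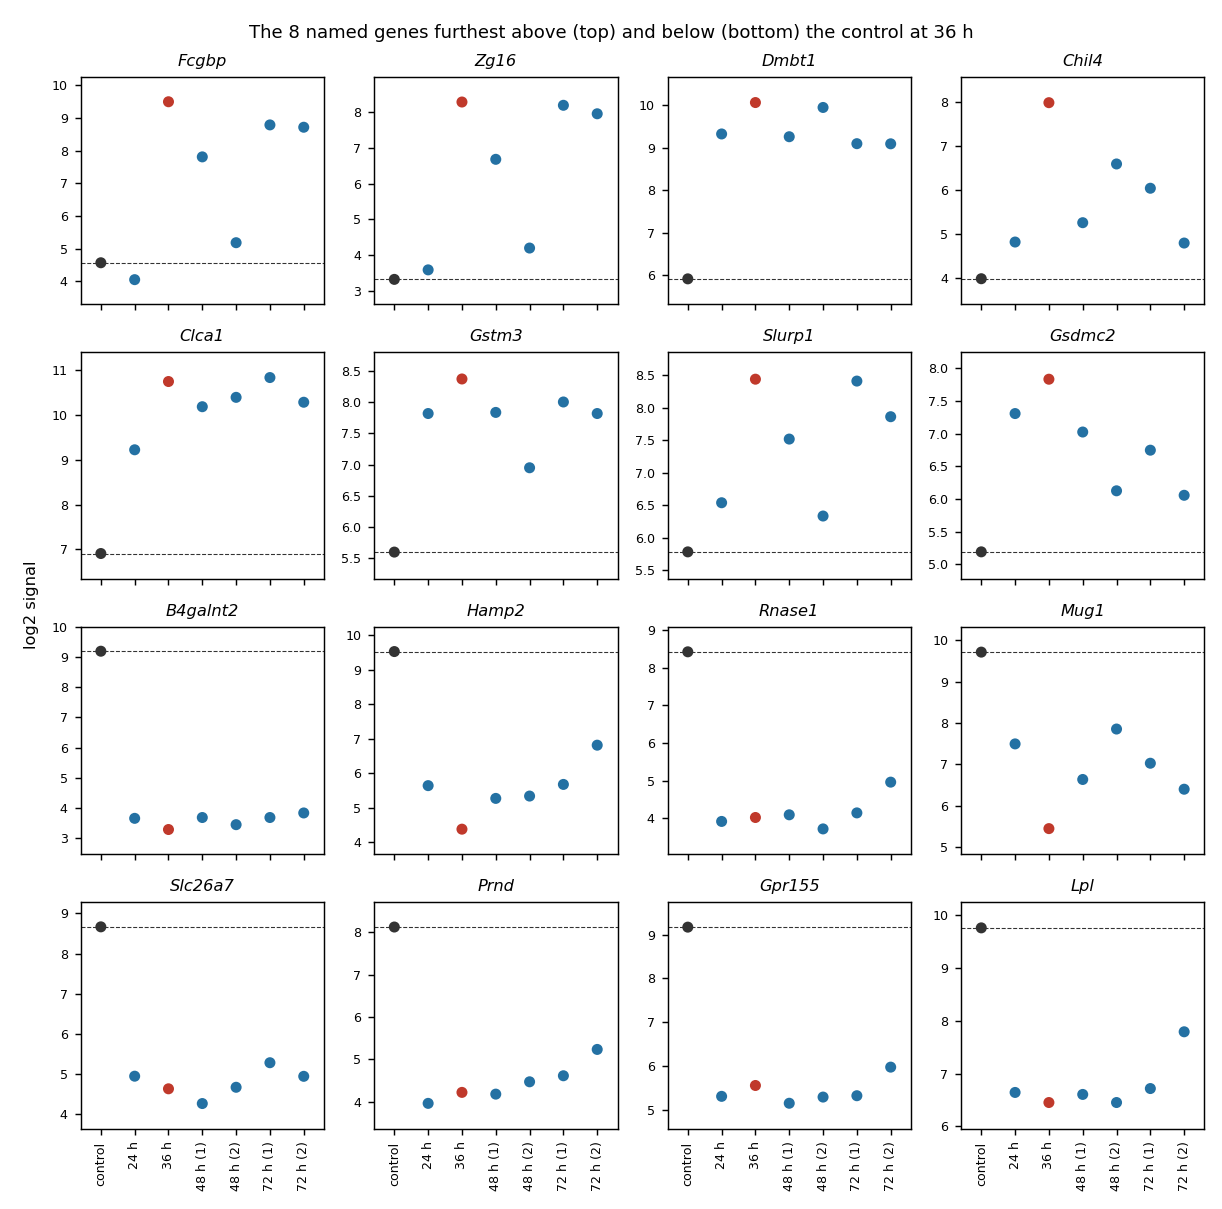
Log2 signal on each of the 7 arrays for the 8 named genes furthest above the control at 36 h (upper panels) and the 8 furthest below it (lower panels); black is the control, with a dashed line at its level, red is 36 h and blue the other toxin arrays. Fcgbp and Zg16 are near the control at 24 h and on the second 48 h array, while B4galnt2, Rnase1 and Slc26a7 are low on all 6 toxin arrays.

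Enzymes that detoxify foreign compounds and oxidants were higher as a group. Of 22 measured genes 20 were higher and 2 lower, 9 of them 2-fold higher beyond both pairs and none 2-fold lower. The shares of all genes were 44.6% higher and 0.917% 2-fold higher beyond both pairs. The list's median was 0.69, and its medians within the pairs were 0.27 and 0.16 in size. Gstm3, a glutathione transferase, read 5.60 in the control, 7.82 after 24 h, 8.37 after 36 h, 7.84 and 6.95 on the 48 h arrays, and 8.0 and 7.82 on those of 72 h, which makes the 36 h array the highest of 7 at 2.78 above the control. Cyp2b10, a cytochrome P450 that responds to foreign compounds, read 5.10 in the control, 7.57 after 24 h, 7.61 after 36 h, 6.29 and 7.33 on the 48 h arrays, and 7.53 and 7.33 on those of 72 h, high on every toxin array except for a lower value at 48 h. Gsta3, another glutathione transferase, was 2.09 higher, with 5.72 in the control, 7.58 after 24 h and 7.81 after 36 h. Slc7a11, which imports cystine for glutathione, was 1.79 higher beside a larger pair gap of 1.42.

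Nqo1, a quinone reductase, read 10.50 in the control, 10.76 after 24 h, 11.51 after 36 h, 11.50 and 10.76 on the 48 h arrays, and 10.67 and 10.61 on those of 72 h. It was high at 36 h and on the first 48 h array, and close to the control on the other 4 toxin arrays. Ces1f, a carboxylesterase, was 2.56 higher, with 6.69 in the control, 8.93 after 24 h and 9.26 after 36 h. Its relative Ces1g was 1.93 higher. Akr1b8, an aldo-keto reductase, was 2.04 higher, with 6.22 in the control, 7.73 after 24 h and 8.26 after 36 h. Hmox1 and Txnrd1, widely used markers of oxidative stress, differed by 0.37 and 0.19, each less than its larger pair gap of 0.68 and 0.34. The list's medians on the other toxin arrays were 0.53 for 24 h, 0.89 and 0.36 for the 48 h arrays, and 0.47 and 0.30 for those of 72 h, with the same control array under all of them.

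Cyp2e1, a cytochrome P450 of the liver, read 4.62 in the control, 4.46 after 24 h, 7.20 after 36 h, 4.69 and 7.10 on the 48 h arrays, and 4.93 and 5.25 on those of 72 h, high on the 36 h array and on 1 of the 48 h arrays. On that 48 h array the liver protein Alb was also high, at 9.60, but it read 4.49 in the control and 4.70 at 36 h. Of 10 liver markers 6 were higher and 4 lower at 36 h with a median of 0.05, which turned to -0.05 with the array medians subtracted. Their mean log2 signal was 5.12 on the control array and 5.16 at 36 h.

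Cell division genes were higher at 36 h without exception. All 41 measured genes of the G2 and M phases were higher than in the control, 40 of them beyond both pairs and 13 also 2-fold, with a median of 0.87 beside pair medians of 0.24 and 0.29 in size. All 37 measured genes of the G1 to S transition and DNA replication were higher too, 33 beyond both pairs and 6 also 2-fold, with a median of 0.59 beside 0.09 and 0.11. Over all genes 44.6% were higher at 36 h and 21.8% were higher beyond both pairs.

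Mki67, the proliferation marker Ki-67, read 7.69 in the control, 9.64 after 24 h, 9.21 after 36 h, 9.47 and 9.33 on the 48 h arrays, and 8.81 and 8.60 on those of 72 h. It was 1.52 higher than the control, beside a larger pair gap of 0.21. Top2a, the topoisomerase that untangles chromosomes, read 6.52 in the control, 8.38 after 24 h, 7.93 after 36 h, 8.04 and 7.76 on the 48 h arrays, and 7.41 and 6.91 on those of 72 h. Ccnb2, a mitotic cyclin, read 6.12 in the control, 7.55 after 24 h, 7.57 after 36 h, 7.36 and 7.23 on the 48 h arrays, and 7.21 and 6.86 on those of 72 h. Every toxin array lay above the control for these 3 genes, with the 24 h array highest for Mki67 and Top2a and the 24 h and 36 h arrays nearly equal for Ccnb2. Birc5, which encodes survivin, was 1.44 higher, and Cenpe and Kif11, motors of the mitotic spindle, 1.26 and 1.22 higher.

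Among replication genes, Hells, a chromatin remodelling helicase, read 5.27 in the control, 7.98 after 24 h, 7.24 after 36 h, 7.03 and 7.28 on the 48 h arrays, and 6.86 and 6.42 on those of 72 h and stood 1.97 above the control, the largest difference in the list. Rrm2, the subunit of ribonucleotide reductase made in S phase, was 1.57 higher, Lig1, the DNA ligase of replication, 1.39 higher, and Mcm5, a part of the replicative helicase, 1.02 higher. The smallest differences were those of Gins3 and E2f1, 0.10 and 0.13, both below their larger pair gaps. The G2 and M list had medians of 1.26 for 24 h, 0.87 for 36 h, 1.01 and 0.72 for the 48 h arrays, and 0.61 and 0.33 for those of 72 h.

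Promoters of 300 bases, from 250 before to 50 after the transcription start, were taken from RefSeq (GRCm38.p6) to show sequence features that such genes share. The CHR element, to which the DREAM and MuvB complexes bind in mitotic genes, was searched as TTTGAA and the E2F site as TTTCCCGC, each on both strands, with overlapping matches counted; capitals mark the matches. TTTGAA was found in the promoters of 26 of 35 G2 and M genes with a promoter in the table (74.3%), for 20.2% of all 27025 genes with a promoter there, and in 17.9% of all 32851 promoters. TTTCCCGC was found for 8 of 31 G1 to S and replication genes (25.8%), for 1.24% of all genes and in 1.07% of all promoters. Cdk1, the kinase that drives mitosis, and Hells are shown (chr10:69352863-69353162, minus strand, and chr19:38930740-38931039, plus strand), each as an example of its list. Cdk1 was 0.81 higher at 36 h.
Cdk1: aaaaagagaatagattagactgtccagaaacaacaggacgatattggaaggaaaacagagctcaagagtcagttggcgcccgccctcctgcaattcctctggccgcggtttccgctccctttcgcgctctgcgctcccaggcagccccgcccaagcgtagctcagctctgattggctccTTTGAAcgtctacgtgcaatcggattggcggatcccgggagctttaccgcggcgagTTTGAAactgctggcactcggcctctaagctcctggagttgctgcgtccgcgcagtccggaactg
Hells: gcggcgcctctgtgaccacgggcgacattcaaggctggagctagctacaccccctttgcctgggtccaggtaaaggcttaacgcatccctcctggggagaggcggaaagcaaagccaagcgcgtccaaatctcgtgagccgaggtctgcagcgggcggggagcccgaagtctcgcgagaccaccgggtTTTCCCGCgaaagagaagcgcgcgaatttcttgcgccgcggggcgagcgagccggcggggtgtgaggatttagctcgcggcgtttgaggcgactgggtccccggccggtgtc
A match is a description of the letters, and members with and without one differed little from each other at 36 h: the median was 0.89 with TTTGAA and 0.90 without it, and 0.53 with TTTCCCGC and 0.60 without it.

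Ribosome genes were higher by small amounts. Of 45 measured cytosolic ribosomal protein genes 42 were higher and 3 lower, 33 higher beyond both pairs, none 2-fold, with a median of 0.47. The shares of all genes were 44.6% higher and 21.8% higher beyond both pairs. Of 18 genes of ribosome biogenesis 17 were higher, 16 of them beyond both pairs, with a median of 0.43 beside pair medians of 0.06 and 0.06 in size. Npm1 and Ncl, nucleolar proteins, were 0.92 and 0.91 higher and Nop58, of the enzyme that methylates ribosomal RNA, 0.83 higher. Rpph1, the RNA of ribonuclease P, which cuts transfer RNA precursors, read 8.25 in the control, 10.46 after 24 h, 10.74 after 36 h, 9.59 and 9.81 on the 48 h arrays, and 9.82 and 9.78 on those of 72 h. It was high on every toxin array and highest at 36 h.

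Interferon-stimulated genes were higher on most toxin arrays, and the 48 h pair was split over them. Of 39 measured genes 33 were higher at 36 h and 6 lower, with a median of 0.76; 11 were 2-fold higher and 1 was 2-fold lower beyond both pairs. The median within the 48 h pair was 0.76 in size, as large as that of 36 h against control, and only 16 genes were higher beyond both pairs. Of all genes 44.6% were higher, 21.8% higher beyond both pairs and 0.917% also 2-fold. By array the medians above the control were 0.97 for 24 h, 0.76 for 36 h, 1.00 and 0.25 for the 48 h arrays, and 0.96 and 0.99 for those of 72 h. Without the second 48 h array all medians lay between 0.76 and 1.00.

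Ifit1, which binds viral RNA, read 4.66 in the control, 7.42 after 24 h, 6.93 after 36 h, 7.16 and 5.26 on the 48 h arrays, and 7.34 and 7.55 on those of 72 h. The difference at 36 h was 2.28 beside a pair gap of 1.91. Ddx60, a helicase of the antiviral response, read 5.55 in the control, 7.43 after 24 h, 7.86 after 36 h, 8.13 and 6.36 on the 48 h arrays, and 7.61 and 7.99 on those of 72 h. In both genes 5 of the 6 toxin arrays lay at least 1.88 above the control and the second 48 h array less than 1 above it. Oas2 and Oasl2, of the oligoadenylate synthetase family, were each 2.13 higher at 36 h and stood at 7.59 and 9.03 after 24 h, beside 5.41 and 6.79 in the control. Rtp4 was 1.41 and Bst2, the viral tether tetherin, 1.33 higher.

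Not every member took part. Ifi27, an interferon-inducible mitochondrial protein, read 8.61 in the control, 6.97 after 24 h, 6.97 after 36 h, 6.49 and 6.97 on the 48 h arrays, and 7.44 and 7.65 on those of 72 h, lower than the control on all 6 toxin arrays. Cxcl10, a chemokine that attracts T cells, read 5.09 in the control, 7.30 after 24 h, 4.89 after 36 h, 5.78 and 5.71 on the 48 h arrays, and 5.94 and 5.73 on those of 72 h, high at 24 h and below the control at 36 h. Ddx58, which encodes the RNA sensor RIG-I, and Ifit2 differed by -0.04 and -0.01. Among antigen presentation genes, which interferon also induces, 14 of 17 were higher with a median of 0.20, 8 of them beyond both pairs and none 2-fold; Tap1, a peptide transporter, was 0.71 higher.

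The core of the interferon-stimulated response element was searched on both strands as GAAA followed by GAAA after any 2 bases. It was found in the promoters of 18 of 29 genes of the list with a promoter in the table (62.1%), for 3.99% of all genes and in 3.44% of all promoters. Ifit1 (chr19:34640639-34640938, plus strand) and Ddx60 (chr8:61927837-61928136, plus strand), the list's 2 largest differences, each held 2 matches, shown in capitals; in Ifit1 the letters are those of the reverse strand.
Ifit1: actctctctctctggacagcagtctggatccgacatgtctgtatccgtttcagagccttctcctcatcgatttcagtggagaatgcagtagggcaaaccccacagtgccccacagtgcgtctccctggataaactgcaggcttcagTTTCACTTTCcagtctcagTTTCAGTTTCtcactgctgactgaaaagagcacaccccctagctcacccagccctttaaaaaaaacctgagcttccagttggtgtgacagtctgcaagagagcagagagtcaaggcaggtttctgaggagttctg
Ddx60: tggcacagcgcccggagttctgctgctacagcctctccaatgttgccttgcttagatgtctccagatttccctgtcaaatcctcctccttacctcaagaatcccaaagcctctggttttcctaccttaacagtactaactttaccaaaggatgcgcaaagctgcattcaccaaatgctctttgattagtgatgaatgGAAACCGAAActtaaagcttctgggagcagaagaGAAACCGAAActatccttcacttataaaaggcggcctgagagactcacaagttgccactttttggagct
The median difference at 36 h was 0.65 for the 18 genes with a match and 0.69 for the 11 without.

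Most immune cell markers stood near the control at 36 h, and many were dim. None of 15 macrophage, 12 neutrophil, 15 T and NK cell or 6 eosinophil markers was 2-fold apart beyond both pairs, and their medians were 0.13, 0.14, 0.03 and 0.01; the last 2 turned to -0.07 and -0.09 with the array medians subtracted. On both arrays 9 of the 12 neutrophil, 9 of the 15 T and NK cell and 5 of the 6 eosinophil markers lay below the array median. Of 11 mast cell genes 8 were lower and 3 higher, with a median of -0.07 beside pair medians of 0.06 and 0.42 in size, and 6 lay below the array median on both. The only one 2-fold apart beyond both pairs was Kit, a growth factor receptor that interstitial cells of the gut wall also carry, at -1.48 from the control. Lyz2, a lysozyme of macrophages, was 0.66 higher, and Cx3cr1, a receptor of resident macrophages, 0.52 higher. Cd209a, a dendritic cell lectin, read 6.20 in the control, 7.68 after 24 h, 7.47 after 36 h, 6.81 and 7.33 on the 48 h arrays, and 7.74 and 7.42 on those of 72 h, higher on every toxin array. The dendritic cell list as a whole was evenly split: of 8 measured genes 4 were higher and 4 lower at 36 h, with a median of -0.004. Cd209a was its only gene 2-fold apart beyond both pairs (12.5%, where over all genes it was 2.49%). Adgre1 and Csf1r, which define macrophages, differed by -0.06 and -0.02.

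Immunoglobulin gene segments, a group chosen after its values were seen, were low at 36 h. Of 21 segments 19 were lower than in the control and 1 higher, 6 of them 2-fold lower beyond both pairs, and on 13 the 36 h array was the lowest of 7. The shares of all genes were 46.3% lower, 1.57% 2-fold lower beyond both pairs and 13.0% lowest at 36 h. Their median was -0.57 at 36 h and 0.95 for 24 h, 0.17 and 0.43 for the 48 h arrays, and 0.45 and -0.27 for those of 72 h, and the median within the 72 h pair was 0.83 in size. Jchain, which joins the chains of secreted IgA and IgM, read 6.89 in the control, 8.28 after 24 h, 5.39 after 36 h, 7.45 and 8.11 on the 48 h arrays, and 7.65 and 5.82 on those of 72 h, lowest at 36 h but within its 72 h pair gap of 1.83. The segments' median within the 72 h pair was thus larger in size than their median difference at 36 h. Their median within the 48 h pair, at 0.06 in size, was smaller.

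The largest downward differences were in genes of sugar transfer, iron, ribonuclease and protease inhibition. B4galnt2, an enzyme that adds the last sugar of the Sda blood group antigen, read 9.19 in the control, 3.65 after 24 h, 3.28 after 36 h, 3.68 and 3.45 on the 48 h arrays, and 3.68 and 3.83 on those of 72 h. The difference at 36 h was -5.91 beside a larger pair gap of 0.24. Hamp2, which encodes a copy of the iron hormone hepcidin, read 9.53 in the control, 5.64 after 24 h, 4.38 after 36 h, 5.27 and 5.34 on the 48 h arrays, and 5.68 and 6.82 on those of 72 h, lowest at 36 h with a difference of -5.15 from the control. Hamp, the other hepcidin, read 2.82 in the control and 2.73 at 36 h, and no other gene of 12 in iron handling was 2-fold apart beyond both pairs. Rnase1, a secreted ribonuclease, was -4.40 from the control, with 8.42 in the control, 3.92 after 24 h and 4.02 after 36 h. Mug1, a protease inhibitor with close copies, was -4.26 from it, with 9.71 in the control, 7.49 after 24 h, 5.45 after 36 h, 6.63 and 7.85 on the 48 h arrays, and 7.03 and 6.40 on those of 72 h.

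In bulk tissue, fewer cells of a type and less RNA per cell cannot be told apart. Of the 27 genes measured as parietal cell markers 22 lay below the control at 36 h and 5 above it, 19 lower beyond both pairs and 8 of these 2-fold lower, with a median of -0.61 beside pair medians of 0.15 and 0.28 in size. Over all genes 46.3% were lower at 36 h and 23.4% were lower beyond both pairs. The depth of the difference was uneven. Slc26a7, a chloride and bicarbonate exchanger of the parietal cell, read 8.66 in the control, 4.94 after 24 h, 4.63 after 36 h, 4.26 and 4.67 on the 48 h arrays, and 5.28 and 4.94 on those of 72 h. Gpr155 read 9.17 in the control, 5.31 after 24 h, 5.55 after 36 h, 5.15 and 5.29 on the 48 h arrays, and 5.32 and 5.97 on those of 72 h. Both were more than 3 below the control on all 6 toxin arrays.

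The proton pump differed less. Atp4a read 12.78 in the control, 11.37 after 24 h, 12.18 after 36 h, 11.53 and 12.36 on the 48 h arrays, and 12.42 and 12.63 on those of 72 h. Atp4b read 12.94 in the control, 10.68 after 24 h, 12.33 after 36 h, 11.66 and 12.39 on the 48 h arrays, and 12.65 and 12.92 on those of 72 h, so that the 36 h array differed from the control by -0.59 and -0.61 and lay above both the 24 h value and the lower 48 h value. For Atp4a the gap within the 48 h pair, 0.83, was larger than the difference at 36 h, and for Atp4b, at 0.72, it was also larger. Aqp4, a water channel of parietal cells, read 8.53 in the control, 5.45 after 24 h, 6.53 after 36 h, 5.69 and 6.29 on the 48 h arrays, and 7.05 and 7.78 on those of 72 h. Slc4a2, the exchanger that balances acid secretion, read 9.58 in the control, 7.33 after 24 h, 8.27 after 36 h, 7.66 and 8.24 on the 48 h arrays, and 8.77 and 9.33 on those of 72 h; for both the 36 h value lay between those at 24 h and 72 h. Hrh2, the histamine receptor that stimulates acid, was -1.17 from the control and Vegfb, a growth factor, -1.44. Esrrg and Tfcp2l1, transcription factors, and Car2, a carbonic anhydrase that pit cells also make, differed by 0.13, 0.07 and 0.12.

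Egf, the epidermal growth factor, read 7.51 in the control, 4.70 after 24 h, 4.53 after 36 h, 4.30 and 4.70 on the 48 h arrays, and 4.70 and 4.46 on those of 72 h. At -2.97 from the control at 36 h, it was low on all 6 toxin arrays. Dusp6, a phosphatase induced by growth factor signals, was -1.31 from the control. Egf and Dusp6 were the 2 of 16 genes of the EGF family list that were 2-fold apart beyond both pairs (12.5%, where over all genes it was 2.49%). Erbb3, a receptor of the family, was 0.59 higher and Egfr itself 0.22.

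Genes of the tricarboxylic acid cycle were modestly lower, where over all genes 46.3% were lower and 23.4% were lower beyond both pairs. Of 20 genes of the cycle 18 were lower, 12 beyond both pairs and none 2-fold, with a median of -0.19 beside pair medians of 0.01 and 0.16 in size; Idh2, a mitochondrial isocitrate dehydrogenase, differed by -0.68 and Suclg2 by -0.66. Among 49 genes of the respiratory chain and ATP synthase 32 were lower and 16 higher, with a median of -0.09; 13 were lower beyond both pairs, a share near that of all genes. The medians of that list were -0.31 for 24 h, -0.33 and -0.15 for the 48 h arrays, and 0.05 and 0.27 for those of 72 h. Of 18 genes of fatty acid oxidation 12 were lower and 6 higher, 8 lower beyond both pairs and none 2-fold, with a median of -0.25. Glycolysis, with 8 of 14 genes lower and a median of -0.06, and cholesterol synthesis, with 9 of 17 lower and a median of -0.02, stood near the control. Cox7a1, a subunit of cytochrome oxidase found in oxidative tissue, read 8.61 in the control, 5.72 after 24 h, 6.25 after 36 h, 5.89 and 5.98 on the 48 h arrays, and 6.71 and 7.58 on those of 72 h.

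The chief cell list had its lowest median at 36 h. Of 16 measured genes 12 were lower and 4 higher, 9 lower beyond both pairs (over all genes 46.3% were lower and 23.4% lower beyond both pairs) and 4 of these 2-fold lower, with a median of -0.48 beside pair medians of 0.07 and 0.03 in size. On 6 of the 16 the 36 h array was the lowest of 7, which over all genes it was for 13.0%. Cblif, the intrinsic factor that binds vitamin B12, read 12.36 in the control, 11.45 after 24 h, 10.52 after 36 h, 11.40 and 11.50 on the 48 h arrays, and 11.35 and 11.17 on those of 72 h. Its difference from the control was -1.84, and it was lower than on every other toxin array. Chia1, an acidic chitinase, read 12.72 in the control, 11.97 after 24 h, 11.28 after 36 h, 11.98 and 12.11 on the 48 h arrays, and 12.0 and 11.66 on those of 72 h. Slc16a7, a monocarboxylate transporter, was -1.82 from the control. The pepsinogen Pgc differed by -0.19, and the pepsinogen Pga5, at -1.83, by less than its pair gap of 2.25.

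Lipases and other digestive enzymes best known from the pancreas were lower with them. Pnliprp1 and Pnliprp2, relatives of pancreatic lipase, read 8.82 in the control, 7.60 after 24 h, 6.18 after 36 h, 7.37 and 7.78 on the 48 h arrays, and 7.90 and 7.39 on those of 72 h for the first, and 10.20 in the control, 9.38 after 24 h, 8.15 after 36 h, 10.14 and 9.45 on the 48 h arrays, and 9.40 and 9.27 on those of 72 h for the second. Both were at least 2-fold lower at 36 h than on each of the other 6 arrays. Try4, a trypsinogen with near-identical copies, read 8.81 in the control, 8.59 after 24 h, 6.62 after 36 h, 7.31 and 7.53 on the 48 h arrays, and 8.04 and 7.42 on those of 72 h. Cel, a lipase activated by bile salts, was -2.72 from the control, with 7.58 in the control, 5.44 after 24 h and 4.86 after 36 h. Of 21 measured genes of the pancreatic acinar list 12 were lower and 8 higher, where over all genes 46.3% were lower. Beyond both pairs 6 of the 21 were 2-fold lower, beside 1.57% of all genes. The 36 h array was the lowest of 7 on 10, which over all genes it was for 13.0%. The list's median was -0.13.

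Of those 21 genes, 10 lay below the array median on both arrays. They included Cpa1, the carboxypeptidase that defines acinar cells, with 4.13 in the control and 4.0 at 36 h, Ptf1a, their transcription factor, with 4.26 in the control and 4.25 at 36 h, and Cela3b, an elastase, with 3.13 in the control and 3.23 at 36 h. The mean log2 signal of the list was 5.52 on the control array and 4.87 at 36 h. Colipase, Clps, read 12.96 in the control and 12.37 at 36 h.

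Hormone genes of the corpus showed a mixed picture. Of 24 endocrine cell genes 16 were lower and 8 higher, with a median of -0.14, where over all genes 46.3% were lower. Beyond both pairs, 3 genes were 2-fold lower and 2 were 2-fold higher, beside 1.57% and 0.917% of all genes. Sst, the hormone somatostatin, read 11.06 in the control, 10.70 after 24 h, 9.46 after 36 h, 9.81 and 10.41 on the 48 h arrays, and 10.42 and 10.41 on those of 72 h. Ghrl, the hunger hormone ghrelin, read 11.88 in the control, 11.80 after 24 h, 10.66 after 36 h, 10.98 and 11.47 on the 48 h arrays, and 11.84 and 11.32 on those of 72 h. Both were lowest at 36 h. Slc18a2, which loads histamine into granules, was -1.28 from the control. Gast, the hormone gastrin, which is made in the antrum, read 5.83 in the control, 6.0 after 24 h, 7.32 after 36 h, 7.32 and 6.68 on the 48 h arrays, and 8.32 and 7.61 on those of 72 h. Chgb, a granule protein, was 1.19 higher. Gast was higher at 36 h and later and near the control at 24 h. Of 5 antrum markers, Gast among them, 4 were higher and 1 lower at 36 h. Their median was 0.36 beside pair medians of 0.23 and 0.40 in size. The part of antral tissue in the value of Gast was not tested.

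Markers of the other mucous cells of the gland were mixed. Of 15 pit cell genes 12 were higher and 3 lower, none 2-fold, with a median of 0.09, which turned to -0.01 with the array medians subtracted; Muc5ac, the mucin of pit cells, was 0.58 higher and Capn8, a calpain of pit cells, 0.95. Of 10 neck cell genes 6 were higher and 4 lower, with a median of 0.42 beside pair medians of 0.47 and 0.25 in size. Beyond both pairs 1 of them was 2-fold higher and 1 was 2-fold lower (20.0%, where over all genes it was 2.49%): Gkn3 was 1.67 higher and A4gnt, the enzyme of the neck cell sugar, -1.54 from the control. Tff2, the spasmolytic peptide that names SPEM, read 11.47 in the control, 11.15 after 24 h, 12.11 after 36 h, 11.61 and 11.67 on the 48 h arrays, and 12.38 and 12.13 on those of 72 h. Of 17 SPEM genes 9 were higher and 8 lower with a median of 0.16 beside pair medians of 0.28 and 0.11 in size, and 23.5% of them were 2-fold apart beyond both pairs. Besides Dmbt1 and Gkn3, Muc4, a membrane mucin, was 2-fold higher at 1.96, and Nupr1, a stress protein, 2-fold lower at -1.82. Cd44 and Sox9 differed by 0.48 and -0.32, both less than their larger pair gaps of 0.77 and 0.57.

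Lgr5, a stem cell receptor found in chief cells of the corpus, read 6.51 in the control, 5.90 after 24 h, 5.29 after 36 h, 6.22 and 6.05 on the 48 h arrays, and 5.81 and 5.62 on those of 72 h, lowest at 36 h. It was the only 2-fold difference beyond both pairs among 19 stem cell and Wnt genes, of which 14 were lower and 4 higher. The shares of all genes were 46.3% lower and 44.6% higher. Tuft cells, the chemosensory cells, had 14 of 17 genes higher with a median of 0.30, where over all genes 44.6% were higher. Gnat3, a taste G protein, was 1.03 higher, and Dclk1 and Trpm5, which define tuft cells, 0.30 and 0.05.

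Targets of p53, the factor that arrests damaged cells, were slightly lower: 12 of 15 genes were below the control, 10 beyond both pairs and none 2-fold, beside 46.3% and 23.4% of all genes. Their median was -0.25, with Ccng1 at -0.74 and Cdkn1a, the cell cycle inhibitor p21, at 0.08. Smooth muscle, of the stomach wall, had 10 of 20 markers higher and 10 lower, and fibroblasts 5 of 13 higher and 8 lower, none of them 2-fold apart.

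**Figure D3:**
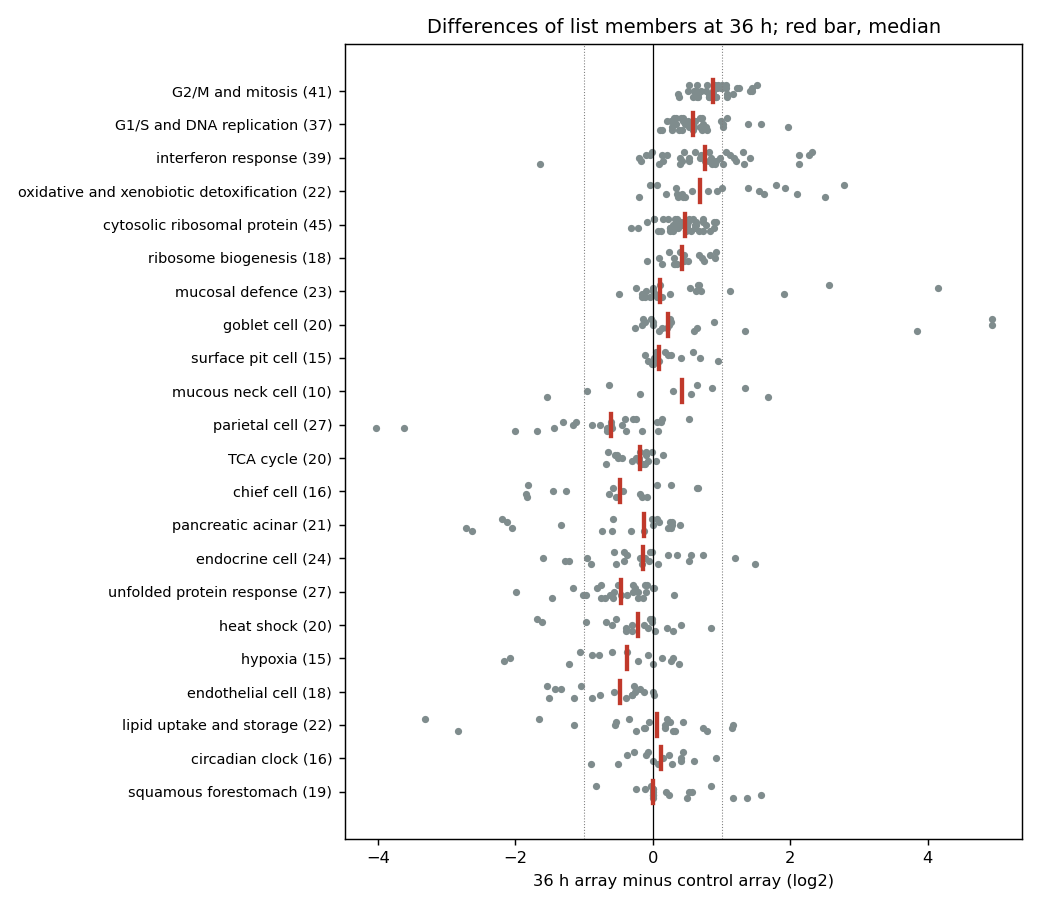
Log2 difference between the 36 h array and the control for every measured gene of 22 lists, with the number of genes in brackets; each grey point is a gene, the red bar is the list's median and the dotted lines mark 2-fold. All points of both cell division lists lie above 0, and 24 of the 27 unfolded protein response genes and 22 of the 27 parietal cell genes lie below it.

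The unfolded protein response keeps the folding capacity of the endoplasmic reticulum matched to the load of secreted protein, and the list of its genes had its lowest median at 36 h. Of 27 measured genes 24 were lower than in the control and 3 higher, 20 lower beyond both pairs and 4 of these 2-fold lower, with a median of -0.46 beside pair medians of 0.01 and 0.08 in size. On 15 of the 27 the 36 h array was the lowest of 7, which over all genes it was for 13.0%. Of all genes 46.3% were lower, 23.4% lower beyond both pairs and 1.57% also 2-fold. By array the medians were -0.17 for 24 h, -0.46 for 36 h, -0.29 and -0.18 for the 48 h arrays, and -0.10 and -0.13 for those of 72 h.

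Ero1b, the oxidase that forms disulfide bonds in secretory cells, read 9.05 in the control, 7.60 after 24 h, 7.06 after 36 h, 7.47 and 7.64 on the 48 h arrays, and 7.82 and 7.62 on those of 72 h. Herpud1, a part of the machinery that removes misfolded protein, was -1.16 from the control, and Xbp1, the transcription factor of secretory capacity, -0.97, beside a pair gap of 0.02. Hspa5, the chaperone BiP, read 9.43 in the control, 9.13 after 24 h, 8.86 after 36 h, 9.19 and 9.20 on the 48 h arrays, and 9.30 and 9.23 on those of 72 h. Chac1, which breaks down glutathione, was -1.47 from the control. Atf4, a transcription factor of the stress response, was 0.32 higher, and the abundant chaperones Calr and P4hb differed by 0.01 and 0.01.

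Derl3 and Tmed6, of the same secretory pathway, were not members of the list but stood apart at 36 h. Derl3, which takes misfolded proteins out of the endoplasmic reticulum, read 7.19 in the control, 6.49 after 24 h, 4.58 after 36 h, 5.71 and 6.01 on the 48 h arrays, and 6.16 and 6.10 on those of 72 h, and was 2-fold lower at 36 h than on each of the other 6 arrays. Tmed6, a cargo receptor of early secretion, read 9.73 in the control, 8.09 after 24 h, 6.89 after 36 h, 7.76 and 7.90 on the 48 h arrays, and 8.14 and 7.83 on those of 72 h. The difference at 36 h was -2.84 from the control.

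The ER stress element was searched on both strands as CCAAT followed by CCACG after any 9 bases. It was found in the promoters of 9 of 25 genes of the list with a promoter in the table (36.0%), for 0.137% of all genes and in 0.119% of all promoters. Ero1b (chr13:12565633-12565932, plus strand), the largest difference of the list, held 1 match, in capitals, which lies on the reverse strand.
Ero1b: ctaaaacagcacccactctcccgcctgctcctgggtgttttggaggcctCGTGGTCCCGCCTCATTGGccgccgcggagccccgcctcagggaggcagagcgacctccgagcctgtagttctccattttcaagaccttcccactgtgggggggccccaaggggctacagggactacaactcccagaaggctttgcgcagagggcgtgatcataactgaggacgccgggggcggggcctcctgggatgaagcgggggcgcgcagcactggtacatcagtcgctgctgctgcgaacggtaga
The median difference was -0.50 for the 9 genes with a match and -0.41 for the 16 without.

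Some cytosolic heat shock genes were also low at 36 h, and more so against the other toxin arrays than against the control. Hspa1b and Hspa1a, the inducible Hsp70 chaperones, are near-identical copies, and their probe sets may share signal. Hspa1b read 8.36 in the control, 8.87 after 24 h, 6.68 after 36 h, 9.13 and 9.27 on the 48 h arrays, and 10.08 and 8.63 on those of 72 h. Hspa1a read 8.28 in the control, 8.21 after 24 h, 6.67 after 36 h, 8.90 and 8.78 on the 48 h arrays, and 9.17 and 7.90 on those of 72 h. They differed from the control by -1.68 and -1.61, beside larger pair gaps of 1.45 and 1.28, and were at least 2-fold below each of the other 6 arrays. Hsph1, a partner of Hsp70 with a sequence of its own, read 8.24 in the control, 8.54 after 24 h, 7.27 after 36 h, 8.22 and 8.38 on the 48 h arrays, and 8.89 and 8.40 on those of 72 h, and was lower at 36 h than on all 6 other arrays, which lay between 8.22 and 8.89.

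Of 20 measured heat shock genes 15 were lower at 36 h and 5 higher, 10 lower beyond both pairs and 2 of these 2-fold, where over all genes 46.3% were lower and 23.4% lower beyond both pairs. The list's median was -0.21 beside pair medians of 0.13 and 0.22 in size. The 36 h array was the lowest of 7 on 9 of the 20 genes, which over all genes it was for 13.0%. Dnajb1, an Hsp40 co-chaperone, was -0.53 from the control and Hspa4l -0.59. Hspd1 and Hspe1, the chaperonins of mitochondria, were higher, by 0.84 and 0.41, and so were the cytosolic Ahsa1, Hspa4 and Dnajb4, by 0.29, 0.21 and 0.04. The cytosolic Hspb1, Stip1 and Fkbp4 stood near the control, at -0.04, -0.01 and -0.08. The list's medians on the other toxin arrays were 0.10 for 24 h, -0.03 and 0.09 for the 48 h arrays, and 0.23 and 0.04 for those of 72 h, so that 36 h was lowest.

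The heat shock element, to which HSF1 binds, was searched as GAANNTTC, which reads the same on both strands. It was found in the promoters of 10 of 17 genes of the list (58.8%), for 9.04% of all genes and in 7.86% of all promoters. Hspa1b (chr17:34959189-34959488, minus strand) and Hsph1 (chr5:149636287-149636586, minus strand) are shown as the copy furthest from the other arrays and the member free of a near-identical copy.
Hspa1b: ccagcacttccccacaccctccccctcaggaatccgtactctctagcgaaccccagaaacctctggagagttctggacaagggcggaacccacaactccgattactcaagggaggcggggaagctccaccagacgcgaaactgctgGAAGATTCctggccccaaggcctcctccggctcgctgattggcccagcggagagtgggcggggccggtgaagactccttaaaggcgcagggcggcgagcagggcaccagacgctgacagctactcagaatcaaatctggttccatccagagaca
Hsph1: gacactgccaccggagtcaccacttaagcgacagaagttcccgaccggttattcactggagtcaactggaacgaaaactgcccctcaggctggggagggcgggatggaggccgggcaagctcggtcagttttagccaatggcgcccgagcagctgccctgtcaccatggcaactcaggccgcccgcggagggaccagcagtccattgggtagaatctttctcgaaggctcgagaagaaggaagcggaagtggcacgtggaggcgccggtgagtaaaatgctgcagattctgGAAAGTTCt
The median difference was -0.31 for the 10 genes with a match and -0.01 for the 7 without.

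**Figure D4:**
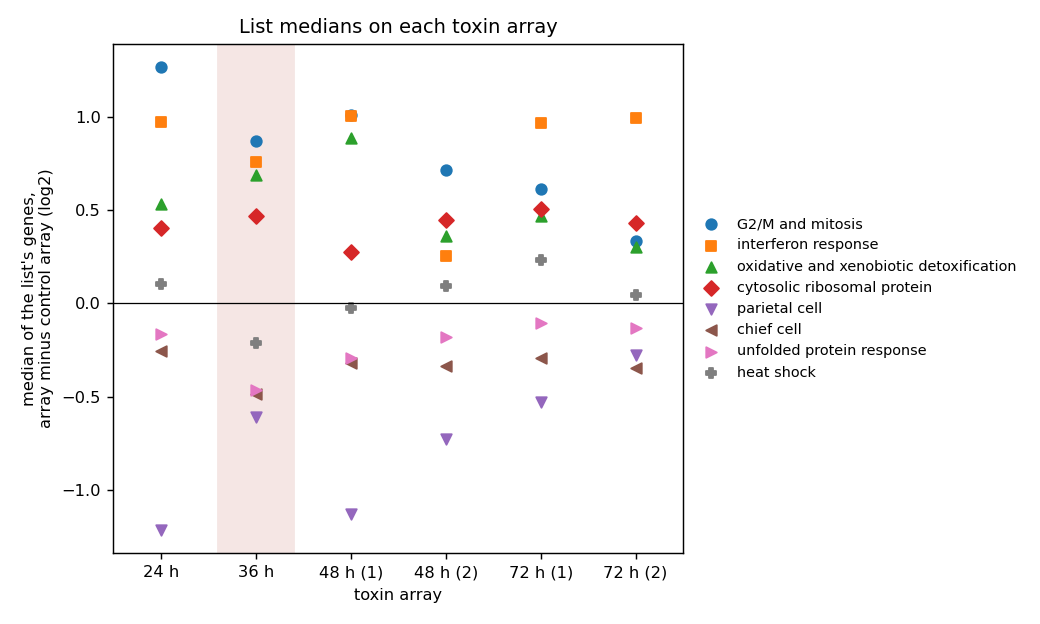
Median log2 difference from the control array of the genes of 8 lists on each of the 6 toxin arrays, with the 36 h array shaded; the same control array lies under all points, and at 48 h (1) the cell division and interferon points nearly coincide. The unfolded protein response, chief cell and heat shock medians are lowest at 36 h, at -0.46, -0.48 and -0.21, while the parietal cell median is lowest at 24 h.

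Blood vessel genes were lower on every toxin array. Of 18 measured endothelial cell genes 16 were lower at 36 h and 1 higher, 14 lower beyond both pairs and 6 of these 2-fold. Of all genes 46.3% were lower, 23.4% lower beyond both pairs and 1.57% also 2-fold. The list's median was -0.48 beside pair medians of 0.02 and 0.15 in size. Eng, a co-receptor of TGF-beta on endothelium, read 7.87 in the control, 7.0 after 24 h, 6.34 after 36 h, 7.0 and 6.84 on the 48 h arrays, and 6.90 and 7.25 on those of 72 h. Kdr, the main receptor of VEGF, read 8.27 in the control, 6.73 after 24 h, 6.85 after 36 h, 6.79 and 6.70 on the 48 h arrays, and 6.70 and 7.21 on those of 72 h. Plvap, of fenestrated capillaries, was -1.52 from the control, Emcn -1.34 and Pecam1, which defines endothelium, -1.05. Vwf and Cldn5 differed by 0.00 and 0.01. Of 7 pericyte genes, markers of the cells that wrap capillaries, 5 were lower beyond both pairs, with Rgs5 at -1.09. Vegfa, the factor that maintains these vessels, was -0.37 from the control.

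Hypoxia-responsive genes had a lower subset. Of 15 genes 10 were lower and 5 higher, 4 of them 2-fold lower beyond both pairs, with a median of -0.37 beside pair medians of 0.22 and 0.16 in size. The shares of all genes were 46.3% lower and 1.57% 2-fold lower beyond both pairs. Car9, a carbonic anhydrase, read 8.91 in the control, 7.38 after 24 h, 6.83 after 36 h, 7.18 and 7.37 on the 48 h arrays, and 7.74 and 8.19 on those of 72 h. Pfkfb3, an activator of glycolysis, read 7.45 in the control, 5.85 after 24 h, 5.28 after 36 h, 5.70 and 5.49 on the 48 h arrays, and 5.57 and 6.09 on those of 72 h. Both were lowest at 36 h. Adm, a vessel-dilating peptide, was -1.22 from the control, while Ero1a was 0.37 and Pdk1 0.01.

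Lipid genes lay on both sides of the control. Of 22 genes of lipid uptake and storage 11 were higher and 11 lower with a median of 0.06, which turned to -0.03 with the array medians subtracted. Beyond both pairs 2 were 2-fold higher and 3 were 2-fold lower, beside 0.917% and 1.57% of all genes. The low ones were Lpl, Cd36 and Slc27a2, a fatty acid transporter at -1.66 from the control. Lpl, the lipase that frees fatty acids from lipoproteins, read 9.76 in the control, 6.64 after 24 h, 6.45 after 36 h, 6.6 and 6.45 on the 48 h arrays, and 6.72 and 7.79 on those of 72 h. Cd36, a fatty acid transporter, read 10.28 in the control, 7.73 after 24 h, 7.45 after 36 h, 7.70 and 7.48 on the 48 h arrays, and 7.22 and 7.56 on those of 72 h. The high ones were Fasn and Dgat2. Fasn, the fatty acid synthase, read 8.05 in the control, 8.31 after 24 h, 9.21 after 36 h, 8.56 and 8.61 on the 48 h arrays, and 8.62 and 8.98 on those of 72 h. Dgat2, which makes triglyceride, read 7.75 in the control, 7.90 after 24 h, 8.92 after 36 h, 8.12 and 8.16 on the 48 h arrays, and 8.62 and 8.73 on those of 72 h. Fabp5, a fatty acid carrier, and Dgat1 were 0.78 and 0.73 higher, and the 36 h array was the highest of 7 on all 4 of these genes. It was the highest on 6 members of the list and the lowest on 6, which over all genes it was for 12.3% and 13.0%.

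Apoa1 and Apoa4, apolipoproteins that the control corpus carried, were -3.05 and -2.19 from the control. Apoa1 read 9.92 in the control, 6.36 after 24 h, 6.87 after 36 h, 6.05 and 7.12 on the 48 h arrays, and 7.77 and 9.34 on those of 72 h. Of 21 intestinal enterocyte genes they were the 2 that were 2-fold lower beyond both pairs, while 3 were 2-fold higher, namely Gpa33, Rbp2 and Vil1 at 1.29, 1.26 and 1.09. The shares of all genes were 1.57% and 0.917%. Of the 21 genes 9 were higher and 10 lower, beside 44.6% and 46.3% of all genes, and the list's median was 0.00.

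Few genes set the 36 h array apart from all others. It was at least 2-fold above each of the other 6 arrays in 2 genes and at least 2-fold below in 9. The control array was so in 115 and 27 genes, the 24 h array in 12 and 0, the 48 h arrays in 5 and 2 and in 18 and 1, and the 72 h arrays in 0 and 0 and in 1 and 1. Without the second 72 h array the counts for 36 h were 4 and 14. The 9 low genes were Hspa1a, Hspa1b, Derl3, Pnliprp1, Pnliprp2 and 4 immunoglobulin gene segments. Of the 199 genes 2-fold higher than the control, the 36 h array was the highest of 7 in 95, and of the 339 lower ones it was the lowest in 149. Both sets were chosen by the 36 h value, which by itself favours an end of the range at 36 h. Without that choice, over all genes, the 36 h array was the highest for 12.3% and the lowest for 13.0%.

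The 2 high genes were Chil4 and Car3. Chil4, a chitinase-like protein of type 2 immune responses, read 3.98 in the control, 4.82 after 24 h, 7.97 after 36 h, 5.25 and 6.58 on the 48 h arrays, and 6.03 and 4.79 on those of 72 h, 3.99 above the control beside a larger pair gap of 1.33. Of 17 genes of the type 2 response 8 were higher and 6 lower, beside 44.6% and 46.3% of all genes, with a median of 0.00. Beyond both pairs Chil4 and Clca1 were 2-fold higher, and the alarmin Il33 and the chemokine Ccl11 2-fold lower, at -1.50 and -1.72. The shares of all genes were 0.917% and 1.57%. On both the control and 36 h arrays 7 of the 17 lay below the array median. Il13, the cytokine that induces many genes of the list, differed by -0.09. Car3, a carbonic anhydrase abundant in fat and muscle, read 7.20 in the control, 5.28 after 24 h, 8.94 after 36 h, 4.88 and 6.33 on the 48 h arrays, and 6.99 and 7.77 on those of 72 h, 1.74 above the control, with the 24 h array, both 48 h arrays and 1 of the 72 h arrays below the control.

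Markers of fat tissue were also low at 24 and 48 h, by smaller amounts. The adipocyte list, with Car3 and Lpl among its 18 genes, had medians of -0.44 for 24 h, -0.00 for 36 h, -0.29 and -0.34 for the 48 h arrays, and -0.20 and 0.04 for those of 72 h. Its mean log2 signal was 6.45 in the control, 5.75 after 24 h, 6.33 after 36 h, 5.87 and 5.85 on the 48 h arrays, and 5.99 and 6.31 on those of 72 h. Of the 18 genes 8 were higher and 9 lower at 36 h, and the 36 h array was the highest of 7 on 5, namely Cidec, Retn, Pparg, Thrsp and Car3. It was the highest for 12.3% of all genes. Adipoq, which defines fat cells, read 3.37 in the control, 2.97 after 24 h, 3.37 after 36 h, 3.05 and 3.13 on the 48 h arrays, and 3.18 and 3.59 on those of 72 h. Lep read 3.52 in the control and 3.52 at 36 h. Both lay below the array median on the control and 36 h arrays. The part of fat tissue in the value of Car3 was not tested. Of 12 markers of striated muscle none was 2-fold apart.

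Scnn1g and Scnn1b, subunits of the epithelial sodium channel, were highest at 36 h. Scnn1g read 5.93 in the control, 5.65 after 24 h, 7.67 after 36 h, 6.18 and 6.46 on the 48 h arrays, and 6.87 and 6.89 on those of 72 h. Scnn1b read 4.90 in the control, 4.56 after 24 h, 6.37 after 36 h, 4.70 and 5.12 on the 48 h arrays, and 5.10 and 5.79 on those of 72 h. The differences from the control were 1.74 and 1.47, beside larger pair gaps of 0.27 and 0.69. Gucy2c, the receptor for guanylin, was lowest at 36 h, at -0.80 from the control.

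**Figure D5:**
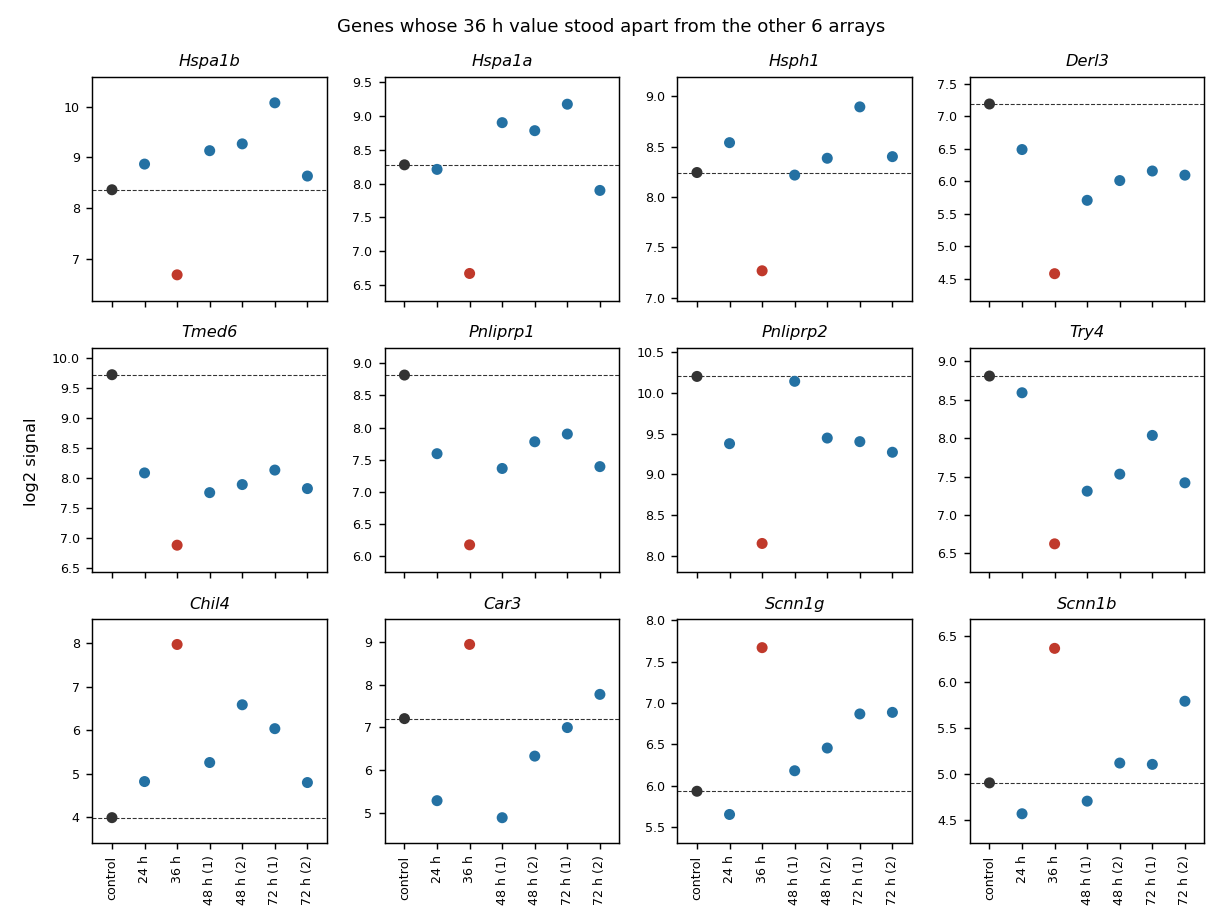
Log2 signal on each of the 7 arrays for 12 genes whose 36 h value (red) lay outside the range of the other 6 arrays; black is the control, with a dashed line at its level, and blue the other toxin arrays. The heat shock, digestive enzyme and secretory pathway genes in the upper 8 panels are lowest at 36 h, and Chil4, Car3, Scnn1g and Scnn1b in the last 4 are highest.

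Clock genes, whose level in tissues varies over the day, were among those on which the 36 h array stood at an end of the range. Arntl, which encodes the activator BMAL1, read 8.45 in the control, 8.33 after 24 h, 7.54 after 36 h, 8.47 and 8.16 on the 48 h arrays, and 8.23 and 8.24 on those of 72 h. It differed from the control by -0.91 at 36 h and was below all others there. Dbp, an output gene that runs opposite to Arntl over the day, read 6.86 in the control, 7.35 after 24 h, 7.79 after 36 h, 6.89 and 7.17 on the 48 h arrays, and 7.33 and 7.40 on those of 72 h, highest at 36 h, and Cry2, a repressor of the clock, read 6.42 in the control, 6.51 after 24 h, 7.01 after 36 h, 6.38 and 6.09 on the 48 h arrays, and 6.15 and 6.23 on those of 72 h, also highest. Per3 and Tef were 0.44 and 0.28 higher and highest at 36 h, and Npas2 -0.51 from the control and lowest. Clock, Bhlhe40 and Nr1d1 differed by -0.07, -0.00 and 0.41. Of 16 clock genes 9 were higher and 7 lower, none 2-fold; the 36 h array was the highest of 7 on 5 and the lowest on 3, where over all genes it was highest for 12.3% and lowest for 13.0%. Arntl varied by at most 0.32 within the pairs. Time of day in these values was not tested.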

How the data were processed

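Gene expression was measured in gastric corpus tissue with Affymetrix arrays, 1 array per sample. Per the submitters' processing notes, the authors used RMA and Partek; versions and genome build: not given in the sources used here. Log2 signal of 41345 probe sets, from 1.39 to 13.5 over the 7 arrays, was analysed as deposited; 0 sample columns were left unused. RMA background correction and normalisation narrow differences near the floor. Equal values on the 36 h and control arrays were seen for 1933 genes (9.09%), beside 11.1% within the 48 h pair and 10.7% within the 72 h pair. Such ties were not confined to the floor: Acta2 read 11.87 on both the 24 h and the 36 h array.

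By the platform annotation 23521 probe sets had 1 gene, 1814 several and 16010 none. The comparison used those with 1 gene, taking for the 1034 genes with several the probe set of highest mean. Entrez identifiers of 23328 probe sets matched RefSeq's GRCm38.p6 table, which gave chromosomes; 41 genes not in it were kept.

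Groups came from the labels. Whether paired arrays came from separate animals is only partly stated, and the letters A and B in the 72 h titles are not explained, so the spread within pairs may be partly technical. Differences were computed in Python 3.11.15 with pandas 2.3.3 and NumPy 2.4.6, with no test and no p-value, and drawn with matplotlib 3.10.9. The counting was tested on simulated data. Genes are described by 58 lists. The members and lists were chosen with earlier results of these data known. Genes named are a selection of these: the 25 largest differences in each direction beyond both pairs and above the array median on the higher array, the first 3 and the 4 largest of each list, and the 12 genes furthest above and below the other 6 arrays; other list members with values were chosen after these were seen. Predicted, small RNA and immunoglobulin genes were left unnamed, 2 of them among the leaders. Alternatives were other scalings, the mean of probe sets, a filter on dim genes, each pair alone and arrays left out.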

Additional observations from a re-analysis of the deposited data

Results flagged for a closer look

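Probe sets outside the gene comparison also differed between the 36 h and control arrays. Of 1814 probe sets annotated to several genes, 31 were at least 2-fold higher and 18 lower beyond both pairs (2.70%), a share close to the 2.49% of genes. Of 16010 probe sets with no gene in the annotation, 1208 were 2-fold higher and 179 lower beyond both pairs (8.66%). These probe sets were dim, with a median log2 signal of 3.88 on the control array and 4.10 at 36 h. Without the comparison to the pairs, 1280 of them were 2-fold higher at 36 h, beside 881 for 24 h, 928 and 914 for the 48 h arrays, and 508 and 497 for those of 72 h, all against the same control array. Within the pairs 425 (48 h) and 618 (72 h) differed 2-fold. The 1280 had a median of 3.83 on the control array and 5.30 at 36 h. What they measure is not given in the annotation and was not tested.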

How the results depend on the processing

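With 1 array a side no result has a test, and signal near the array median cannot show small differences. No paired analysis was possible, because there was 1 array a side and the titles do not match the control and 36 h arrays to each other.

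The counts of 2-fold genes stayed within 1.5 times under every alternative run: 150 to 207 higher and 276 to 433 lower. Subtracting the array medians moved the median of all genes from 0.00 to -0.10 and quantile normalising again to -0.08; the shares of higher genes were 25.7% and 31.9% beside 37.0%. Of 122 named 2-fold genes, 117 and 118 kept direction and size under these, 115 with the mean of probe sets, and 108 of 108 kept by the filter on dim genes. The place of the 36 h array depended on 1 array: over the arrays left out in turn, 2 to 4 genes lay above all others and 9 to 14 below, the highest counts without 72 h replicate 2. The chief cell median was -0.58 with array medians subtracted and -0.56 with dim genes left out, the endothelial median -0.90 with dim genes left out, and the unfolded protein response median -0.56 with array medians subtracted and -0.37 with the mean of probe sets. None of these reversed; the lists whose median turned sign under another scaling lay within 0.10 of 0.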
